A study of Homo sapiens with 24 samples.

Results

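RNA-Seq of PD-L1 silencing under IFNγ was examined in the libraries labelled A498, a cell line of human clear cell renal cell carcinoma (ccRCC). The comparison held 6 of the 24 libraries of the series, chosen by their titles: 3 of cells given a pool of control siRNAs and then IFNγ (Cnsi IFNγ), and 3 of cells given a pool of siRNAs against PD-L1 and then IFNγ (PD-L1si IFNγ). Transfection was with On-Target plus SMARTpool siRNAs at 20 nM in RNAiMAX, and IFNγ at 50 ng/mL was added after 24 hours for a further 24 hours. Both groups were therefore transfected and both were IFNγ treated, and they differed in the siRNA pool. The remaining libraries were the Cnsi and PD-L1si groups without IFNγ of the same line and the same 4 groups labelled 786-O, the other ccRCC line, also with 3 libraries a group. The silencing was transient and used 1 pool, and no second pool, rescue or untransfected group was among the samples, so the loss of PD-L1 and any effect of the pool on other transcripts cannot be told apart. The labels give the genotype of the silenced samples as a knockout, whereas the treatment they describe is an siRNA transfection. The name of the line was taken from the labels and was not checked against a genotype. Which line the study itself assigned to which set of libraries could not be settled from the sources used here, so A498 and 786-O stand for the labels only, and the sequencing instrument, which the methods give by line, rests on the same names. No label said that the 3 libraries of a group came from separate cultures, so p-values measure the spread between these libraries, which may be technical.

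PD-L1, encoded by *CD274*, is a surface protein of tumor and immune cells that binds PD-1 on T cells and restrains them. IFNγ binds its receptor on the tumor cell and, through the kinases JAK1 and JAK2, switches on *IRF1*, antigen presentation, chemokines that draw T cells, and PD-L1 itself. Inflammatory genes in epithelial cells are also driven by NF-κB and AP-1 factors, and ccRCC cells, which arise from the kidney tubule, are known for high glucose use and for reduced expression of genes of the mature tubule.

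The 6 libraries held between 19256316 and 27907526 counts over genes. The 10 most abundant genes took 4.74% to 5.29% of the counts, and mitochondrial transcripts took 1.45% to 2.46%. Levels are given in CPM, the count of a gene as a part of its library's total after scaling by the trimmed mean of M-values (TMM). Of 14 markers of renal carcinoma and kidney tubule, 13 had at least 1 CPM in every one of the 6 libraries. The exception was *CA9*, a carbonic anhydrase raised in most ccRCC, with 0.838, 0.969 and 0.722 CPM in Cnsi IFNγ. The 9 leukocyte markers in the table were under 1 CPM in all 6 libraries and 5 of them had no count. The endothelial markers *CDH5*, *PECAM1*, *VWF* and *KDR* were also under 1 CPM, 3 of the 4 without a count. The summed level of 5 fibroblast markers was 1.88 to 2.13 CPM in Cnsi IFNγ and 2.32 to 3.68 CPM in PD-L1si IFNγ.

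*CD274*, the targeted gene, fell in all 3 silenced libraries. It had 4546, 5134 and 3976 counts in Cnsi IFNγ and 617, 540 and 571 counts in PD-L1si IFNγ, or 191, 199 and 191 CPM against 26.9, 28.5 and 27.7 CPM. The groups were far apart, and the log2 fold change of the PD-L1si IFNγ group over the Cnsi IFNγ group was −2.81 (SE 0.0547, adjusted p = 1.60e-29, edgeR's quasi-likelihood F-test). The level left in PD-L1si IFNγ, 27.7 ± 0.779 CPM (SD, n = 3), was above the 5.07 ± 0.948 CPM of Cnsi cells without IFNγ. *PDCD1LG2*, which encodes the other PD-1 ligand PD-L2 and neighbours *CD274*, had 87.9, 78.1 and 76.4 CPM in Cnsi IFNγ and 35.3, 39.4 and 34.9 CPM in PD-L1si IFNγ. It also fell without overlap between the groups, by a log2 fold change of −1.15 (SE 0.0565, adjusted p = 6.32e-18). They were the only 2 of the 19 checkpoint ligand genes tested that passed the threshold, and this count was 4 without Cnsi IFNγ replicate 3. In bulk RNA, fewer cells of a kind and less RNA per cell cannot be told apart, here and in all that follows.

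Many other genes moved, in both directions and mostly by modest amounts. A gene was called when it had an adjusted p (Benjamini-Hochberg) under 0.05 together with a log2 fold change beyond 0.5 in size. Of 20916 genes tested, 911 were higher in PD-L1si IFNγ, which is 4.36% of those tested, and 1202 were lower, which is 5.75%. The median log2 fold change over all genes tested was 0.01. Past a log2 fold change of 1 there were 266 higher and 335 lower genes. Among the called genes, 876 of the higher and 1174 of the lower ones had no overlap between the 3 and 3 libraries. The call rule itself favours groups that do not overlap, so these counts add no support to it. The share without overlap over all genes tested is not given here. Protein-coding genes made up 646 of the higher and 862 of the lower genes. The higher coding genes were expressed at a lower level, with a median of 5.42 CPM, than the lower ones at 20.7 CPM and all coding genes at 24.4 CPM. Their median exonic length was 5721 bases, against 5213 for the lower genes and 5321 for all. Of the long noncoding RNAs, 208 were higher and 262 were lower, but 133 and 196 of these lay opposite another gene, whose reads could reach them, and none is described singly.

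After *CD274*, the coding genes with the largest falls at 5 CPM or more were *G0S2*, *APCDD1L*, *GEM*, *SLCO4A1*, *LAMB3*, *CCL2*, *CETN2*, *TNFAIP3* and *RND3*. *G0S2*, an inhibitor of the triglyceride lipase of fat cells, had 152, 121 and 143 CPM in Cnsi IFNγ and 31.5, 30.8 and 31.9 CPM in PD-L1si IFNγ, a log2 fold change of −2.14 (SE 0.0743, adjusted p = 3.71e-16, edgeR). Every silenced library was below every control library for *G0S2* and for each of the other genes in this group, which was a condition for naming them. *APCDD1L* went from 10.2 ± 1.62 to 2.59 ± 0.0563 CPM (SD, n = 3, as for the other means), with a log2 fold change of −1.96. *GEM*, a small GTPase induced by mitogens, went from 29.8 ± 1.39 to 8.26 ± 0.63 CPM (−1.85 on the log2 scale). *SLCO4A1*, an organic anion transporter, went from 337 ± 40.1 to 104 ± 1.66 CPM (−1.70). *LAMB3*, the β3 chain of laminin 332 in epithelial basement membranes, went from 83.8 ± 3.44 to 26.1 ± 1.47 CPM (−1.68). *CETN2*, a centrin of centrioles and of nucleotide excision repair, had 39.7, 40.7 and 38.7 CPM in Cnsi IFNγ and 11.6, 14.5 and 12.7 CPM in PD-L1si IFNγ (−1.63, adjusted p = 2.11e-20). *RND3*, a small GTPase that loosens actin fibers, had 569.7, 556 and 564 CPM in Cnsi IFNγ and 176, 221 and 188 CPM in PD-L1si IFNγ (−1.53, adjusted p = 9.01e-20). *CCL2* and *TNFAIP3* are given below with their pathways.

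The coding genes with the largest rises at 5 CPM or more were *ADAMTS15*, *GASK1B*, *TSPAN2*, *VAV3*, *KCNJ16*, *SGK2*, *HGD*, *AKR1C3*, *SEMA3A* and *ANGPTL4*. In all of them every silenced library was above every control library, which was again a condition for naming them. *ADAMTS15*, a secreted metalloprotease of proteoglycans, had 1.76, 1.9 and 1.78 CPM in Cnsi IFNγ and 9.77, 7.96 and 8.24 CPM in PD-L1si IFNγ, a log2 fold change of 2.26 (SE 0.12, adjusted p = 1.29e-16, edgeR). *TSPAN2*, a tetraspanin, went from 12.3 ± 0.442 to 43.5 ± 1.74 CPM (1.82, adjusted p = 7.67e-22). *GASK1B*, a secreted Golgi-associated protein, went from 3.75 ± 0.556 to 14.5 ± 0.699 CPM (1.95). *VAV3*, a guanine nucleotide exchange factor of the cytoskeleton, went from 4.14 ± 1.17 to 14.5 ± 0.65 CPM (1.79). *KCNJ16*, an inward rectifier potassium channel of the tubule, had 4.11, 5.12 and 4.91 CPM in Cnsi IFNγ and 14.8, 14.7 and 15.6 CPM in PD-L1si IFNγ (1.67, adjusted p = 8.18e-17). *HGD*, homogentisate dioxygenase of tyrosine breakdown, went from 4.47 ± 0.497 to 12.4 ± 1.26 CPM (1.47). *SGK2*, a kinase related to the regulators of epithelial ion transport, went from 3.45 ± 0.441 to 10.1 ± 0.961 CPM (1.55). *AKR1C3*, a ketosteroid reductase with close paralogs among which reads may be split, went from 8.35 ± 0.458 to 22.7 ± 1.7 CPM (1.44). *SEMA3A*, a secreted semaphorin, went from 5.69 ± 0.445 to 15.5 ± 1.17 CPM (1.44), and *ANGPTL4*, an inhibitor of lipoprotein lipase, from 19.2 ± 2.66 to 51.8 ± 2.63 CPM (1.43).

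**Figure D1:**
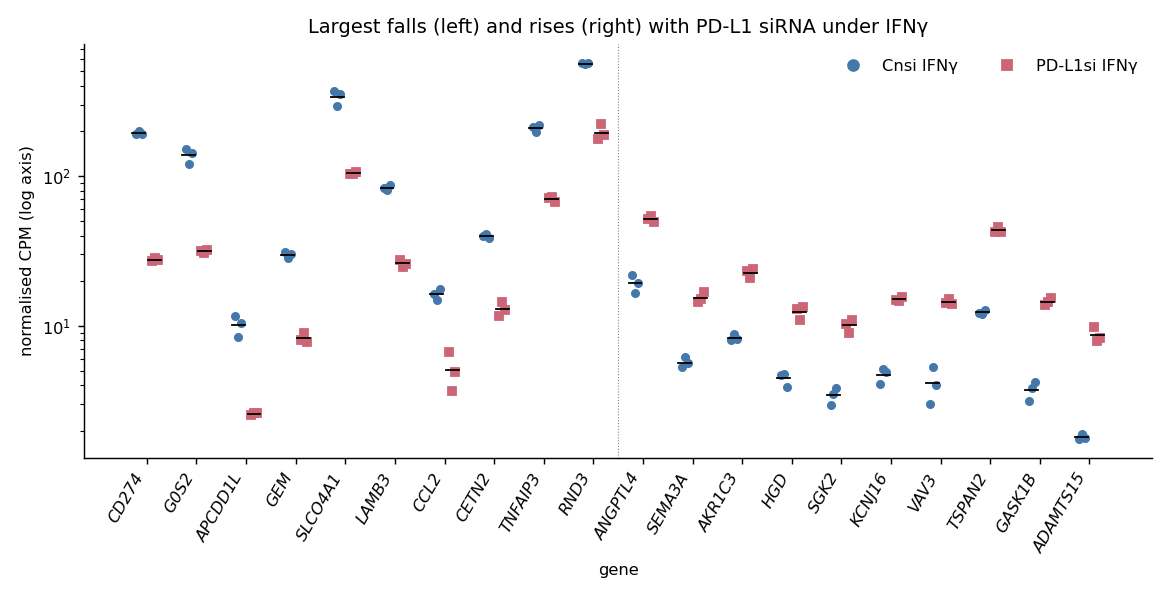
Normalised CPM (log axis) in the 3 Cnsi IFNγ libraries (blue circles) and the 3 PD-L1si IFNγ libraries (red squares) for *CD274*, the coding genes with the largest falls (left) and those with the largest rises (right). Points are libraries and black bars are group means. The genes were chosen among those in which the libraries of the groups do not overlap.

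Genes of the core of the IFNγ pathway were mostly lower, and most changes were small. Among 29 genes of the IFNγ receptor, JAK-STAT and their inhibitors, 1 rose and 3 fell, with a median log2 fold change of −0.17. These are 3.45% and 10.3%, against 4.36% and 5.75% of all genes. At an adjusted p under 0.05 (edgeR) with no limit on the fold, 18 were lower and 3 higher. *IRF1*, a factor that activates many interferon-induced genes, had 1436, 1475 and 1426 CPM in Cnsi IFNγ and 1282, 1239 and 1244 CPM in PD-L1si IFNγ. Its groups were apart, but the log2 fold change of −0.20 (SE 0.0374, adjusted p = 3.83e-05, edgeR) was inside the limit of 0.5, and *IRF1* overlaps an antisense gene. No overlap between the groups and a value inside the limit also held for the receptor chain *IFNGR1* at −0.25, the kinase *JAK2* at −0.22 and the factor *STAT2* at −0.21. The genes that passed were *STAT5A*, a STAT of growth hormone and cytokine receptors, which fell from 6.24 ± 0.37 to 2.11 ± 0.329 CPM (−1.55, adjusted p = 5.96e-11), *USP18*, which removes ISG15 and dampens the interferon receptor (−0.63), and *IRF7*, a factor of interferon genes (−0.52), while the STAT5 inhibitor *CISH* rose from 5.72 ± 0.664 to 8.83 ± 0.283 CPM (0.62). *STAT5A* and *CISH* each overlap a neighbouring gene.

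Many antiviral genes that interferon induces were lower. Of 52 tested, 20 fell and 0 rose, or 38.5% against the 5.75% of all genes that fell, and 49 had a negative log2 fold change, with a median of −0.38 against 0.01 for all genes. *RSAD2*, which makes a chain-terminating nucleotide, had 82.8, 87.3 and 87 CPM in Cnsi IFNγ and 31.8, 40.2 and 33.2 CPM in PD-L1si IFNγ, a log2 fold change of −1.29 (adjusted p = 1.14e-18, edgeR), and it overlaps *CMPK2* at one end. *MX2*, a dynamin-like GTPase that restricts viruses, had 102, 99.5 and 109 CPM and 43.9, 51.8 and 50.5 CPM in the same order (−1.08, adjusted p = 2.06e-17). *ISG20*, an exonuclease, had 67.3, 66.6 and 73 CPM and 35.6, 36.7 and 39.3 CPM (−0.89, adjusted p = 8.84e-13). All 3 genes were lower in each silenced library than in any control library. *OAS2*, a sensor of double-stranded RNA, went from 297 ± 6.43 to 197 ± 7.63 CPM (−0.59). At an adjusted p under 0.05 (edgeR) with no limit on the fold, 46 of the 52 were lower and 0 higher. Not every gene of the kind fell: *APOL6* had 852 ± 16.8 CPM in Cnsi IFNγ and 899.8 ± 47.1 CPM in PD-L1si IFNγ (0.08, adjusted p = 0.146, edgeR). *GBP5*, a guanylate-binding protein, fell by less than the limit, from 2369 ± 70.8 to 1939.8 ± 65.5 CPM (−0.29, adjusted p = 1.2e-06, edgeR). Its groups did not overlap. *IDO1*, a tryptophan enzyme strongly induced by IFNγ, had 590.3 ± 13.2 CPM in Cnsi IFNγ and 530.4 ± 31.9 CPM in PD-L1si IFNγ (−0.15) and was not called. It was lower in every silenced library (adjusted p = 0.00986, edgeR), but by less than the limit.

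A core of the interferon-stimulated response element, TTTCNNTTT on either strand, was searched in the 250 bases before each start site in RefSeq (GRCh38.p14). It was in 9.28% of 27305 promoters, in 6.39% of those of tested coding genes and in 57.9% (22 of 38) of those of the antiviral list, including 10 of the 15 that fell. Over all coding genes that fell it was in 7.92%, and over those that rose in 7.93%. The promoters of *ISG20* and of the T cell chemokine *CXCL10* are shown because both genes fell and both hold the letters. They are printed 5′ to 3′ on the strand of the gene (*ISG20*, chr15:88638766-88639015, plus strand, and *CXCL10*, chr4:76023498-76023747, minus strand), with the match in capitals. A match of letters is no measurement of binding.
ISG20: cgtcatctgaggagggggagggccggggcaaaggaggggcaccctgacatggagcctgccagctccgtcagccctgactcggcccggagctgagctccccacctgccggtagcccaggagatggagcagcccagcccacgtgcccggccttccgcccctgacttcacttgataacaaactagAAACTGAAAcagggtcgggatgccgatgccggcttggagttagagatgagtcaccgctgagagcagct
CXCL10: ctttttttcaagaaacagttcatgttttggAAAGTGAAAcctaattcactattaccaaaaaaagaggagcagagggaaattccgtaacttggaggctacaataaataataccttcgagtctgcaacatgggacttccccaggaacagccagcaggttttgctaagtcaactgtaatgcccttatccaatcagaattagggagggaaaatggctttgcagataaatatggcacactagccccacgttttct

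HLA class I genes did not pass the threshold, and part of class II fell. Of 21 class I and peptide loading genes, 0 rose and 0 fell by the call rule, and DESeq2 called 0 as well. At an unadjusted p under 0.05 (edgeR) 15 were lower and 1 higher, and the median log2 fold change was −0.15. The highest was *ERAP1*, which trims peptides (0.21). Of 16 class II genes, 0 rose and 5 fell, or 31.25% lower against 5.75% of all genes. All 16 were negative, and the median was −0.34. *HLA-DQA1*, an α chain, had 62.1, 59 and 57.8 CPM in Cnsi IFNγ and 24.7, 24.8 and 22 CPM in PD-L1si IFNγ, well apart (−1.32, adjusted p = 1.80e-17). *HLA-DOA* went from 11.4 ± 0.613 to 5.5 ± 0.605 CPM (−1.04) and *HLA-DQB1* from 74.8 ± 2.54 to 49.7 ± 0.625 CPM (−0.59), while *HLA-DMA* stood at 71.2 ± 1.61 and 68 ± 2.57 CPM (−0.06). Reads of the related HLA genes may be split or lost in alignment, so their levels are uncertain. Without PD-L1si IFNγ replicate 3, 3 class II genes fell in place of 5.

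Chemokines and cytokines had the lowest median of the 29 lists. Of 32 tested, 20 fell and 1 rose, or 62.5% lower, and the median log2 fold change was −0.70. *CCL2*, which attracts monocytes, had 16.4, 14.8 and 17.6 CPM in Cnsi IFNγ and 6.72, 3.69 and 4.89 CPM in PD-L1si IFNγ (−1.64, SE 0.12, adjusted p = 1.71e-12, edgeR). *IL6* had 72.1, 74.4 and 80.3 CPM and 27.8, 26.1 and 27 CPM in the same order (−1.48, SE 0.0542, adjusted p = 1.76e-21). In both genes the silenced libraries lay below all control libraries, and *IL6* overlaps an antisense gene. *CXCL10*, a ligand of CXCR3 on T cells, fell from 1665, 1695 and 1604 CPM to 855, 995 and 902 CPM (−0.85, adjusted p = 1.35e-17), and it remained among the abundant transcripts. *CX3CL1*, a membrane-bound chemokine, fell from 127 ± 2.35 to 70.1 ± 5.6 CPM (−0.86). *CCL8*, a monocyte chemokine near the limit of detection, went from 2.13 ± 0.201 to 0.47 ± 0.16 CPM (−2.15), and *CCL20* from 20, 25 and 16 counts to 2, 3 and 2 counts. The member that rose was *IL18*, a cytokine of the IL-1 family, from 0.798 ± 0.078 to 1.6 ± 0.321 CPM (1.02, adjusted p = 0.00226).

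Many NF-κB genes and some AP-1 genes fell. Of 44 NF-κB subunits, targets and TNF signalling genes, 21 fell and 1 rose, or 47.7% lower, with a median of −0.50. *TNFAIP3*, which encodes the feedback inhibitor A20, had 212, 197 and 219 CPM in Cnsi IFNγ and 71.7, 71.9 and 67.1 CPM in PD-L1si IFNγ (−1.57, SE 0.0488, adjusted p = 2.91e-23, edgeR). *TRAF1*, an adaptor of TNF receptors, had 106, 93.2 and 106 CPM and 42.8, 42.7 and 42.1 CPM in the same order (−1.26, adjusted p = 3.99e-20). *IRAK2*, a kinase downstream of IL-1 and Toll-like receptors, went from 44.4 ± 2.5 to 21.7 ± 0.992 CPM (−1.03). The groups did not overlap in these 3 genes. The gene that rose was *LTA4H*, leukotriene A4 hydrolase, from 16.3 ± 0.662 to 24.2 ± 0.921 CPM (0.57). Of 37 AP-1 and immediate early factors, 10 fell, 0 rose and 27 were not called, with a median of −0.26. The share that fell was 27.0%, against 5.75% of all genes. At an adjusted p under 0.05 with no limit on the fold, 19 of these factors were lower and 5 higher. *GADD45A* and *GADD45B*, stress sensors, went from 282 ± 10.2 to 149 ± 2.72 CPM (−0.93) and from 169 ± 3.7 to 91.2 ± 1.77 CPM (−0.89). *KLF6*, an early zinc finger factor, went from 503 ± 2.51 to 286 ± 6.35 CPM (−0.82), and *ATF3*, a stress-induced member of the ATF family, from 226 ± 10.7 to 151 ± 1.15 CPM (−0.58, adjusted p = 2.36e-12). *EGR2* stood at the other end, at 1.25 ± 0.0486 and 1.74 ± 0.213 CPM (0.48, adjusted p = 0.0681), and was not called.

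A κB motif, GGGNNTTTC on either strand, was searched in the same windows. Its last letters can be shared with the interferon motif. It was in 4.12% of all promoters, in 4.19% of those of tested coding genes, in 39.1% (9 of 23) of those of the chemokine and cytokine list and in 27.0% (10 of 37) of those of the NF-κB list. Among members that fell it was in 8 of 14 for the chemokine and cytokine list and in 3 of 18, or 16.7%, for the NF-κB list. Over the coding genes that fell it was in 6.13%, and over those that rose in 4.45%. The promoters of *IL6* (chr7:22726950-22727199, plus strand) and *TNFAIP3* (chr6:137867009-137867258, plus strand) are shown because these genes were among the most lowered of both lists. The capitals mark the matches, 1 in *IL6*, starting 73 bases before the gene, and 2 in *TNFAIP3*, starting 66 and 54 bases before it and read there on the opposite strand.
IL6: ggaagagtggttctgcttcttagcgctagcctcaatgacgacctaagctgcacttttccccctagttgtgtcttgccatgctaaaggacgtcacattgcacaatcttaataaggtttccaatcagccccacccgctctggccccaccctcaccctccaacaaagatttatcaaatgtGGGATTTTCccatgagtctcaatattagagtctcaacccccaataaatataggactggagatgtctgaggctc
TNFAIP3: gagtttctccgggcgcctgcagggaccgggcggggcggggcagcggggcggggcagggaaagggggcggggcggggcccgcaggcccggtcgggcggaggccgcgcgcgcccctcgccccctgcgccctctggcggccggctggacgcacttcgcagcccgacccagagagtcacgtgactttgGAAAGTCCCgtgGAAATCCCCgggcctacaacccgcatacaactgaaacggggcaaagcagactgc

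Complement genes went both ways. Of 21, 3 rose and 4 fell, or 14.3% and 19.0% against 4.36% and 5.75% of all genes, with a median of −0.17. *C1S*, the protease of the classical pathway, had 1052, 1010.4 and 1012 CPM in Cnsi IFNγ and 417, 449 and 429.8 CPM in PD-L1si IFNγ (−1.25, adjusted p = 3.89e-23, edgeR), and every silenced library was lower. *C3AR1*, the receptor of C3a, went from 5.49 ± 0.515 to 2.15 ± 0.456 CPM (−1.34). *CFI*, the protease that inactivates C3b and C4b, rose from 8.89 ± 1.04 to 16.9 ± 1.52 CPM (0.92). *C4A* (0.55) and *C4B* (0.61), which are near-identical copies and were counted with uncertainty, also rose, and *C4A* was not called without PD-L1si IFNγ replicate 2, at 0.49. *C3*, the most abundant component, stood at 2532 ± 74.5 CPM in Cnsi IFNγ and 2157 ± 43.6 CPM in PD-L1si IFNγ (−0.23) and was not called.

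**Figure D2:**
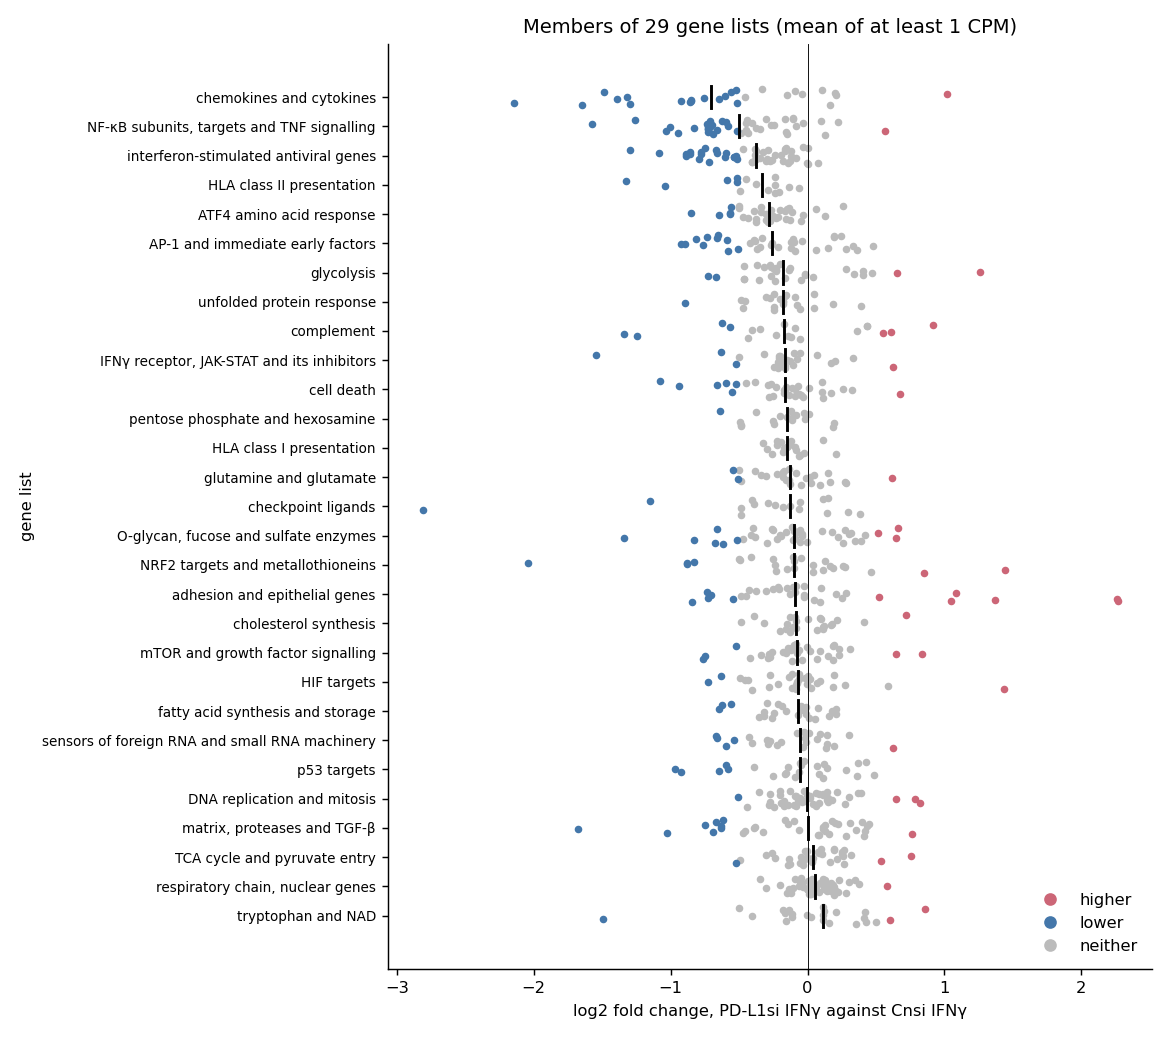
Log2 fold change of PD-L1si IFNγ over Cnsi IFNγ for the members of 29 gene lists with a mean of at least 1 CPM, ordered by list median. Points are genes (red higher, blue lower, grey not called) and black bars mark list medians over all tested members. Chemokines and cytokines (median −0.70), NF-κB genes (−0.50) and antiviral genes (−0.38) lie farthest to the left.

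Metabolism was of interest because the study asked whether PD-L1 takes part in the effect of IFNγ on glucose and tryptophan use. Of 34 glycolysis genes, 2 rose and 2 fell, or 5.88% each way, which is near the share among all genes, and the median was −0.18. With no limit on the fold, at an adjusted p under 0.05 (edgeR), 18 of them were lower and 6 higher. *HK1*, hexokinase 1, had 506, 482 and 499.7 CPM in Cnsi IFNγ and 303, 318 and 314 CPM in PD-L1si IFNγ (−0.67, SE 0.0381, adjusted p = 2.59e-16, edgeR). *HKDC1*, a hexokinase-like gene, had 592, 591 and 597 CPM and 359, 362 and 354 CPM in the same order (−0.73, SE 0.037, adjusted p = 1.35e-17), and neither gene's groups overlapped. The glucose transporter *SLC2A1* stood at 1945 ± 44.7 and 1606 ± 56.7 CPM (−0.28, adjusted p = 3.24e-07) and *HK2* at 169 ± 7.1 and 140.5 ± 9.6 CPM (−0.27, adjusted p = 1.10e-05), lower in every silenced library but inside the limit of 0.5. *LDHA*, lactate dehydrogenase A, stood at 1424 ± 31.1 and 1405 ± 44.8 CPM (−0.02, adjusted p = 0.759), with overlapping groups. *PDK4*, which shuts off pyruvate dehydrogenase, rose from 1.34 ± 0.131 to 3.23 ± 0.491 CPM (1.26), and 4 glycolysis genes rose without Cnsi IFNγ replicate 2. Of 19 genes of the pentose phosphate and hexosamine pathways, 1 fell, *UAP1*, which makes UDP-N-acetylglucosamine, from 127 ± 3.02 to 81.8 ± 8.55 CPM (−0.64), and 0 rose. This count was 2 without Cnsi IFNγ replicate 2 or 3 or PD-L1si IFNγ replicate 1, and 3 without PD-L1si IFNγ replicate 2. *GNPDA2*, of the same pathway, was at 0.19.

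The TCA cycle and the respiratory chain moved little. Of 34 TCA cycle and pyruvate entry genes, 2 rose and 1 fell, with a median of 0.04. *MPC1*, a subunit of the mitochondrial pyruvate carrier, rose from 6.72 ± 0.0656 to 11.4 ± 1.46 CPM (0.76, adjusted p = 7.55e-08, edgeR). *IDH2* rose from 107 ± 5.29 to 154 ± 8.13 CPM (0.53), and *DLD*, a shared subunit of pyruvate and 2-oxoglutarate dehydrogenase, fell from 161 ± 0.403 to 112 ± 6.52 CPM (−0.52). These last calls were close to the limit: *IDH2* was at 0.50 and not called without Cnsi IFNγ replicate 1 or PD-L1si IFNγ replicate 1, and *DLD* at −0.48 and not called without PD-L1si IFNγ replicate 1. With other single libraries left out (Cnsi IFNγ replicate 1 or 3, PD-L1si IFNγ replicate 2 or 3), 2 of these genes fell. Of 54 nuclear genes of the respiratory chain, 1 rose, *NDUFA5* of complex I, from 36.5 ± 0.198 to 54.7 ± 6.23 CPM (0.58), and 0 fell, with a median of 0.06. *UQCRFS1* of complex III was the lowest, at −0.34.

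Few glutamine genes and few genes of the amino acid response passed the fold limit, but most of them were lower by smaller amounts. Of 31 glutamine and glutamate genes, 2 rose and 3 fell, with a median of −0.13. At an adjusted p under 0.05 (edgeR) with no limit on the fold, 16 of them were lower and 4 higher. The glutamine transporter *SLC1A5* stood at 469 ± 12.6 and 415 ± 21.8 CPM (−0.18) and was not called. *SLC38A5*, a transporter of glutamine and related amino acids, fell from 10.8 ± 0.601 to 7.43 ± 0.147 CPM (−0.54), and *GOT1*, aspartate aminotransferase, from 103 ± 3.8 to 72.9 ± 0.973 CPM (−0.50). *GOT1* sat on the limit and was not called without Cnsi IFNγ replicate 2 (−0.47) or PD-L1si IFNγ replicate 2 (−0.49). The members that rose numbered 0 without Cnsi IFNγ replicate 2 or PD-L1si IFNγ replicate 1, and 1 without Cnsi IFNγ replicate 1 or PD-L1si IFNγ replicate 2. Of 34 genes of the ATF4 amino acid response, 5 fell and 0 rose, or 14.7% lower against 5.75% of all genes. Their median was −0.28, with 31 negative values. With no limit on the fold, at an adjusted p under 0.05 (edgeR), 27 of them were lower and 2 higher. *PPP1R15A*, which restores translation after stress, had 404, 373 and 399 CPM in Cnsi IFNγ and 215, 218 and 218 CPM in PD-L1si IFNγ (−0.85, adjusted p = 5.03e-18, edgeR). *GDF15*, a stress cytokine, fell from 366 ± 13.3 to 234 ± 17.2 CPM (−0.65), and *PCK2*, the mitochondrial phosphoenolpyruvate carboxykinase, from 226 ± 1.76 to 152 ± 5.14 CPM (−0.56). *VLDLR*, a lipoprotein receptor, was at the other end of the list, at 0.26.

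Tryptophan and NAD genes split within the pathway. Of 29, 3 rose and 1 fell, or 10.3% and 3.45% against 4.36% and 5.75% of all genes, with a median of 0.11. *KYNU*, kynureninase, had 30.7, 28.8 and 31.6 CPM in Cnsi IFNγ and 9.38, 12.8 and 10.3 CPM in PD-L1si IFNγ, every silenced library lower (−1.49, SE 0.0795, adjusted p = 4.31e-17, edgeR). *KMO*, the hydroxylase one step before it, rose from 108, 126 and 114 CPM to 171, 182 and 176 CPM (0.60, SE 0.0464, adjusted p = 5.66e-13), although it overlaps *OPN3*. *TDO2*, the dioxygenase that shares its reaction with *IDO1*, rose from 2.07 ± 0.34 to 3.76 ± 0.31 CPM (0.86). *AFMID*, the formamidase of the pathway, stood at 5.74 ± 0.523 and 8.11 ± 0.739 CPM (0.50), just inside the limit, and was called without Cnsi IFNγ replicate 1 (0.56) or PD-L1si IFNγ replicate 2 (0.57). *QPRT*, which leads on to NAD, was at 0.42, and *NAMPT*, the rate-limiting enzyme of NAD salvage, stood at 855 ± 7.21 and 644 ± 41.9 CPM (−0.41, adjusted p = 3.79e-10). Neither was called, and 2 genes of this list fell without Cnsi IFNγ replicate 2 or 3 or PD-L1si IFNγ replicate 1.

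Few lipid and folding genes passed the fold limit. At an adjusted p under 0.05 (edgeR) with no limit on the fold, 11 fatty acid genes were lower and 3 higher. For cholesterol synthesis these counts were 4 and 3. For the unfolded protein response they were 15 and 2, with a median log2 fold change of −0.18. Of 25 genes of fatty acid synthesis and storage, 3 fell and 0 rose, with a median of −0.07: *FADS3*, a desaturase-like gene (−0.64), *SCD*, stearoyl-CoA desaturase (−0.56), and *PLIN2*, the lipid droplet coat protein that is high in ccRCC. *PLIN2* had 1519, 1504 and 1416 CPM in Cnsi IFNγ and 944, 969.8 and 970.2 CPM in PD-L1si IFNγ, with no overlap (−0.62, adjusted p = 1.63e-15, edgeR). *FADS2*, the Δ6 desaturase, was at 0.21. Of 25 cholesterol synthesis genes, *TM7SF2*, a sterol reductase that overlaps *VPS51*, rose from 2.21 ± 0.534 to 3.57 ± 0.728 CPM (0.72), and 0 fell, against 1 without Cnsi IFNγ replicate 1 or PD-L1si IFNγ replicate 1 or 2. Of 22 genes of the unfolded protein response, *ERN1*, which encodes the sensor IRE1, fell from 45 ± 2.3 to 24.2 ± 1.66 CPM (−0.90), and *DNAJB9*, an ER chaperone, was the highest at 0.39. Without Cnsi IFNγ replicate 2 or PD-L1si IFNγ replicate 2, 2 genes of that list fell.

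Genes of epithelial adhesion and of the kidney tubule went both ways, some by large factors. Of 35 adhesion and epithelial genes, 6 rose and 5 fell, or 17.1% and 14.3% against 4.36% and 5.75% of all genes. Their median was −0.09. *CDH1*, E-cadherin, had 1.01, 0.814 and 0.481 CPM in Cnsi IFNγ and 3.97, 3.48 and 3.83 CPM in PD-L1si IFNγ (2.27, SE 0.20, adjusted p = 1.30e-11, edgeR). *CLDN2*, the claudin of the proximal tubule, had 0.587, 0.582 and 0.385 CPM and 3.14, 2.22 and 2.18 CPM in the same order (2.26, SE 0.23, adjusted p = 4.30e-10). Both were low in these cells under IFNγ, and their groups did not overlap. *CDH6*, a cadherin of the fetal and proximal tubule, had 38.3, 50.4 and 41 CPM and 117, 103 and 116 CPM (1.37, adjusted p = 7.68e-11), *CDH16*, kidney-specific cadherin, 13.8, 14.1 and 13 CPM and 30.9, 27.8 and 25.9 CPM (1.05), and *ITGB8*, an integrin that activates TGF-β, a log2 fold change of 1.08. *CD44*, the hyaluronan receptor, fell from 356 ± 21.2 to 198 ± 9.09 CPM (−0.84). Of the 14 markers of renal carcinoma and kidney tubule, 4 rose and 2 fell, and their summed level was 7843 to 7889 CPM in Cnsi IFNγ and 6817 to 6893 CPM in PD-L1si IFNγ. *LHX1*, a factor of the developing nephron, had 4.57, 4.54 and 3.8 CPM in Cnsi IFNγ and 11.1, 9.18 and 10.9 CPM in PD-L1si IFNγ (1.27). *PAX8*, a lineage factor of renal carcinoma, was lower, at 167, 138 and 156 CPM and 94.9, 86.1 and 88.4 CPM (−0.77), and so was *KRT19*, an epithelial keratin (−0.73). *CDH16*, *ITGB8*, *LHX1*, *PAX8* and *KRT19* were singled out after their values were seen.

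**Figure D3:**
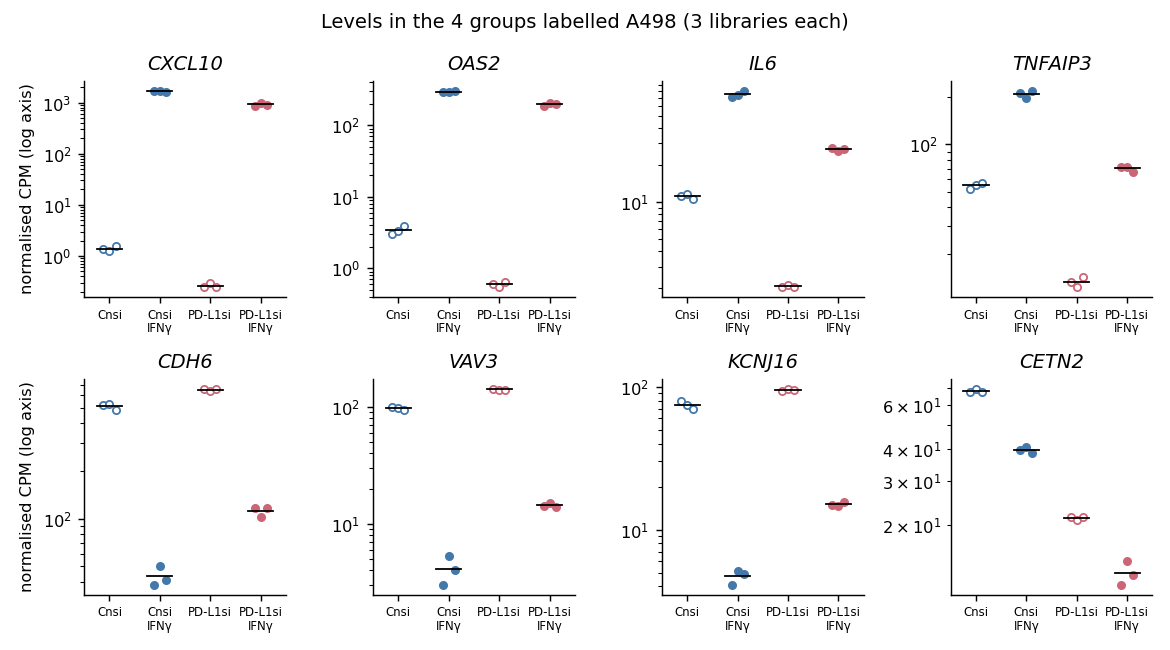
Normalised CPM (log axes, each with its own range) of 8 genes in the 3 libraries of each of the 4 groups labelled A498. Open points are without IFNγ, filled points with IFNγ, blue Cnsi and red PD-L1si, and bars are means. *CXCL10*, *OAS2*, *IL6*, *TNFAIP3* and *CETN2* are lower in PD-L1si in both states, while *CDH6*, *VAV3* and *KCNJ16* are far lower with IFNγ than without it and lie higher in PD-L1si IFNγ than in Cnsi IFNγ.

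Matrix genes went both ways. Of 44 genes of matrix, proteases and TGF-β, 8 fell and 2 rose, or 18.2% lower, with a median of 0.01. With no limit on the fold, at an adjusted p under 0.05, the balance was the other way, with 18 higher and 14 lower. Beside *LAMB3*, *COL6A1*, a chain of collagen VI, fell from 46.2 ± 4.36 to 22.5 ± 1.93 CPM (−1.03, adjusted p = 7e-15, edgeR), and *COL5A2*, of collagen V, rose from 16.6 ± 0.721 to 28.2 ± 1.31 CPM (0.76). 1 gene of the list rose in place of 2 without Cnsi IFNγ replicate 1 or 3 or PD-L1si IFNγ replicate 1 or 3. Of 32 HIF targets, 1 rose and 2 fell, with a median of −0.07. *ANGPTL4* is given above, and *INHBB*, an activin subunit, fell from 35.6 ± 1.06 to 21.5 ± 0.285 CPM (−0.72).

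Of 48 O-glycan, fucose and sulfate enzymes, 7 fell and 3 rose, or 14.6% and 6.25% against 5.75% and 4.36% of all genes. Their median was −0.10. *CHST11*, a chondroitin sulfotransferase, fell from 171 ± 6.64 to 96.3 ± 5.76 CPM (−0.83, adjusted p = 8.09e-17, edgeR), *B3GNT5*, which starts lacto-series glycolipids, from 41.4 ± 2.34 to 26 ± 3.87 CPM (−0.68), and *FUT1*, a fucosyltransferase of the H antigen, from 1.61 ± 0.388 to 0.648 ± 0.146 CPM (−1.34). *CHST2*, an N-acetylglucosamine sulfotransferase, stood at 5.65 ± 1.01 and 5.19 ± 0.554 CPM (−0.11, adjusted p = 0.544), with overlapping groups. *FUT6* had no count in the 6 libraries and *A4GNT* 0, 1 and 1 counts in Cnsi IFNγ and 0, 0 and 0 in PD-L1si IFNγ, so neither could be compared. Without Cnsi IFNγ replicate 1, 1 enzyme of this list rose. *FGF14*, an intracellular FGF-like factor, had 1.01, 0.504 and 0.625 CPM in Cnsi IFNγ and 0.524, 0.686 and 1.11 CPM in PD-L1si IFNγ, and the groups overlapped (0.11, adjusted p = 0.822).

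Of 28 NRF2 targets and metallothioneins, 5 fell and 2 rose, or 17.9% and 7.14% against 5.75% and 4.36% of all genes. Their median was −0.10. All 5 that fell were metallothioneins, small metal-binding proteins whose near-identical sequences make single levels uncertain. *MT1X* had 7.84, 4.69 and 6.64 CPM in Cnsi IFNγ and 1.44, 1.11 and 2.03 CPM in PD-L1si IFNγ (−2.04, adjusted p = 1.55e-10, edgeR), and *MT1F* went from 20.0 ± 1.35 to 10.8 ± 1.52 CPM (−0.88). Of 36 cell death genes, 7 fell and 1 rose, or 19.4% and 2.78% against 5.75% and 4.36% of all genes. Their median was −0.17, and 18 were lower and 4 higher at an adjusted p under 0.05 (edgeR) with no limit on the fold. *XIAP*, an inhibitor of caspases, had 86.1, 92.6 and 88.2 CPM in Cnsi IFNγ and 39.9, 45.9 and 41.3 CPM in PD-L1si IFNγ, with no overlap (−1.07, adjusted p = 2.24e-18). *GSDME*, a gasdermin cut by caspase 3, fell from 118 ± 3.33 to 61.3 ± 2.6 CPM (−0.94), and *BCL2L11*, which encodes the proapoptotic protein BIM, rose from 24.3 ± 0.0368 to 38.7 ± 0.345 CPM (0.67).

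Proliferation and growth genes showed no common shift, while the called p53 targets were all lower. Of 49 genes of DNA replication and mitosis, 3 rose and 1 fell, with a median of −0.01. *CCNE2*, cyclin E2, rose from 8.07 ± 0.137 to 14.3 ± 0.632 CPM (0.82, adjusted p = 9.31e-10, edgeR), *E2F2* from 5.27 ± 0.516 to 9 ± 0.849 CPM (0.78) and *E2F8* from 7.42 ± 0.515 to 11.6 ± 0.187 CPM (0.64). *MCM2*, of the replicative helicase, fell by 0.51 on the log2 scale, and was not called without PD-L1si IFNγ replicate 2 or 3 (−0.49 for both). Without PD-L1si IFNγ replicate 1, 2 genes of the list fell. Of 25 p53 targets, 5 fell and 0 rose, or 20% lower against 5.75% of all genes. At an adjusted p under 0.05 (edgeR) with no limit on the fold, 9 were lower and 6 higher, and the median was −0.06. *PLK3*, a stress kinase, fell from 28.8 ± 1.45 to 14.7 ± 0.824 CPM (−0.97). *CCNG1* was at 0.49, called as higher without Cnsi IFNγ replicate 2 (0.52) or PD-L1si IFNγ replicate 1 (0.53). Of 38 mTOR and growth factor genes, 2 rose and 3 fell, with a median of −0.08. *MTOR* stood at 121 ± 5.82 and 123 ± 1.93 CPM (0.02), the EGFR ligands *AREG* and *EREG* fell (−0.76 and −0.75), and *FGFR2*, a receptor of FGFs, rose from 7.64 ± 1.03 to 13.6 ± 1.34 CPM (0.83).

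Since siRNAs are themselves double-stranded RNAs, sensors of foreign RNA and small RNA factors were listed separately. Of 26, 1 rose and 4 fell, or 3.85% and 15.4% against 4.36% and 5.75% of all genes, with a median of −0.06. *RIGI*, the cytoplasmic sensor of RNA ends, had 189, 191 and 185 CPM in Cnsi IFNγ and 111, 129 and 117 CPM in PD-L1si IFNγ (−0.67, adjusted p = 4.23e-14, edgeR), and *OAS1* went from 197 ± 4.47 to 124 ± 2.54 CPM (−0.66). *AGO2*, the Argonaute that cuts siRNA targets, rose from 55.7 ± 2.26 to 85.9 ± 0.639 CPM (0.63). Whether the siRNA pools differ in what these sensors recognise was not tested.

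The same siRNA contrast without IFNγ, in libraries that are not shared with the comparison above, called 1773 of the 20916 genes, or 8.48%, of which 601 were higher and 1172 lower. Of the 2113 genes called under IFNγ, 855 (40.5%) were called there too, which is 48.2% of the genes called without IFNγ, and 850 of the 855 had the same direction, 260 higher and 590 lower. *CD274* fell there from 5.07 ± 0.948 to 0.916 ± 0.101 CPM (−2.47). *IL6* had 11.2, 11.6 and 10.6 CPM in Cnsi and 2.04, 2.11 and 2.07 CPM in PD-L1si without IFNγ (−2.42, adjusted p = 1.48e-19, edgeR) and was lower in every silenced library there too. *TNFAIP3* went from 54.7 ± 2.52 to 13.3 ± 1.01 CPM (−2.03) and *MX2* from 1.61 ± 0.321 to 0.254 ± 0.0797 CPM (−2.66). The antiviral list had a median log2 fold change of −0.67 without IFNγ, with 34 of 52 lower, against −0.38 with it. The chemokine and cytokine list had −0.86 without and −0.70 with IFNγ, and the NF-κB list −0.53 and −0.50.

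**Figure D4:**
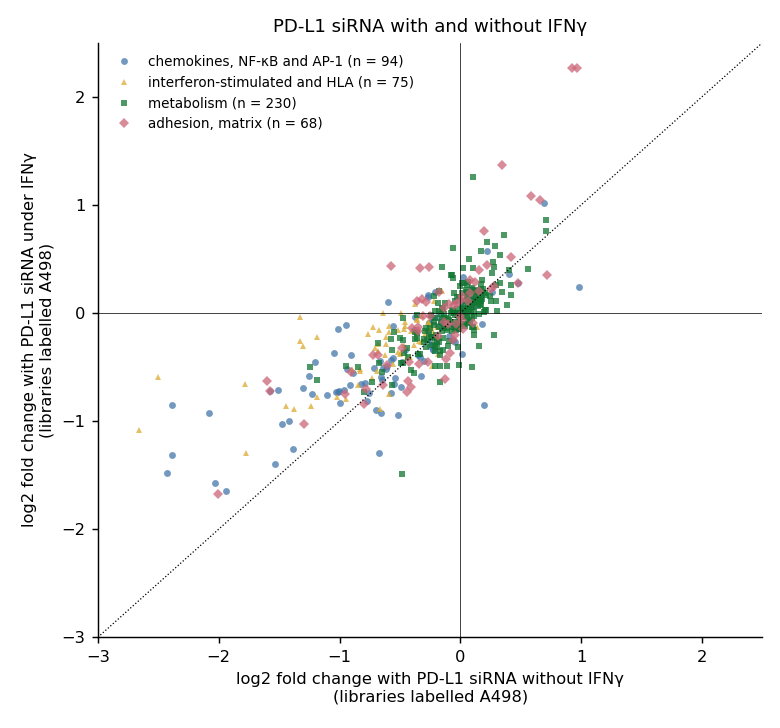
Log2 fold change with PD-L1 siRNA in A498-labelled libraries without IFNγ (x axis) and under IFNγ (y axis), for members of 4 groups of gene lists with a mean of at least 1 CPM over the 6 IFNγ libraries and over the Cnsi libraries. Points are genes and the dotted line marks equal values. Most chemokine, NF-κB and AP-1 genes (blue) are below 0 on both axes, and most interferon-stimulated genes (yellow) lie above the dotted line.

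The difference between both siRNA effects, tested as an interaction, passed the threshold in 513 of the 20916 genes, or 2.45%, 378 of them positive and 135 negative. Of the genes called under IFNγ, 283 were among them: of those that rose, 166 had a positive and 6 a negative difference, and of those that fell, 61 had a negative and 50 a positive one. The interaction uses the same libraries under IFNγ that gave these calls, so this split is partly fixed by how the genes were chosen. *CDH6*, *VAV3*, *KCNJ16* and *GASK1B* rose with a positive difference. *VAV3* had 99.3, 97.5 and 93.9 CPM in Cnsi and 143, 141 and 140.0 CPM in PD-L1si without IFNγ, against 3.02, 5.35 and 4.04 and 14.2, 15.2 and 14 CPM with it, and the difference of effects was 1.25 (adjusted p = 4.25e-09, edgeR). *KCNJ16* stood at 74.5 ± 4.4 and 95.3 ± 1.69 CPM without IFNγ (difference 1.32), *GASK1B* at 20.3 ± 0.951 and 25.5 ± 1.49 CPM (1.63), and *CDH6* at 513 ± 22.8 and 650.1 ± 13.6 CPM (1.03). All 4 were lower with IFNγ than without it in both siRNA groups, *GASK1B* least so in the silenced cells, from 25.5 to 14.5 CPM, and in the silenced cells the level under IFNγ was less low.

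Other interferon genes fell by a smaller factor once IFNγ was present. Of the 52 antiviral genes 11 passed the interaction test, all 11 with a positive value. *OAS2* had 3.07, 3.3 and 3.87 CPM in Cnsi and 0.599, 0.547 and 0.641 CPM in PD-L1si without IFNγ, a log2 fold change of −2.50, and the difference of effects was 1.91 (adjusted p = 2.09e-09, edgeR). *CXCL10* had 1.36, 1.27 and 1.55 CPM and 0.247, 0.295 and 0.249 CPM without IFNγ (difference 1.54). *GBP5*, at 0.345 ± 0.122 and 0.0633 ± 0.0559 CPM without IFNγ (difference 2.09), and *HLA-DPA1*, at 0.106 ± 0.083 and 0 ± 0 CPM, were so low there that the size of the difference is uncertain. On the negative side were genes that fell mainly or further under IFNγ. *CX3CL1* had 17.5 ± 0.178 and 20.0 ± 0.27 CPM without IFNγ (difference −1.05, adjusted p = 1.40e-11), *SEMA7A*, a membrane semaphorin of leukocyte adhesion, fell under IFNγ from 18 ± 2.01 to 7.47 ± 0.592 CPM and stood at 8.68 ± 0.233 and 7.48 ± 0.382 CPM without it (difference −1.05), and *CMKLR2*, a receptor of chemerin, fell from 39.8 ± 1.48 to 23.2 ± 1.33 CPM and stood at 0.558 ± 0.104 and 0.825 ± 0.197 CPM without it (difference −1.34). *KYNU* likewise stood at 8.94 ± 0.352 and 6.37 ± 0.271 CPM without IFNγ (difference −1.01, adjusted p = 7.89e-07).

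In the libraries labelled 786-O, with the same pools, dose and times, PD-L1 siRNA under IFNγ called 643 of 21209 genes, or 3.03%. Those libraries were sequenced on another instrument (a NextSeq, against a NovaSeq), so line and instrument cannot be told apart, and 1475 genes with over 1000 counts in the A498-labelled libraries had none there, *JAK2*, *IFNGR1* and *SLC2A1* among them. *CD274* fell there by a log2 fold change of −0.94, less than in the A498-labelled libraries (difference 1.87, adjusted p = 3.11e-18, edgeR). Of the 2113 called genes 1807 were tested in both lines. Of these, 218 (12.1%) were called in the 786-O-labelled libraries too, which is 39.6% of the 550 called there among genes tested in both, and 211 of the 218 had the same direction, 138 lower and 73 higher. The effects differed past the threshold in 1008 of 17999 genes tested in both, or 5.6%, and in 687 of the 1807. The 1807 were called in A498-labelled libraries that this difference also uses, so their share is partly fixed by that choice. The falls of the inflammatory lists were not among the calls of the 786-O-labelled libraries. There 0 of 26 chemokines and cytokines (median −0.15), 0 of 36 NF-κB genes (−0.12) and 0 of 45 antiviral genes (−0.01) fell by the call rule. Only 369 of all 21209 genes were called lower there, so 0 is near the background for lists of this size. At an unadjusted p under 0.05 (edgeR), 8, 17 and 10 of them were lower and 2, 7 and 5 higher. *IL6* had a log2 fold change of −0.41 there (difference 1.09, adjusted p = 1.08e-07), *TNFAIP3* −0.44 (difference 1.15) and *MX2* −0.19 (difference 0.91). The fall of *TNFAIP3* there had an adjusted p of 0.000439 (edgeR) and missed the call only by the limit of 0.5. Of the 10 coding genes with the largest rises, 3 were called as higher there too: *ANGPTL4* at 1.30 (difference −0.12, not called), *SGK2* at 0.62 and *ADAMTS15* at 0.56. *CDH1* at 0.77 and *CLDN2* at 0.58 also rose, less than in the A498-labelled libraries, while *VAV3* stood at 0.07 (difference −1.71) and *CDH6* at −0.17 (difference −1.53).

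**Figure D5:**
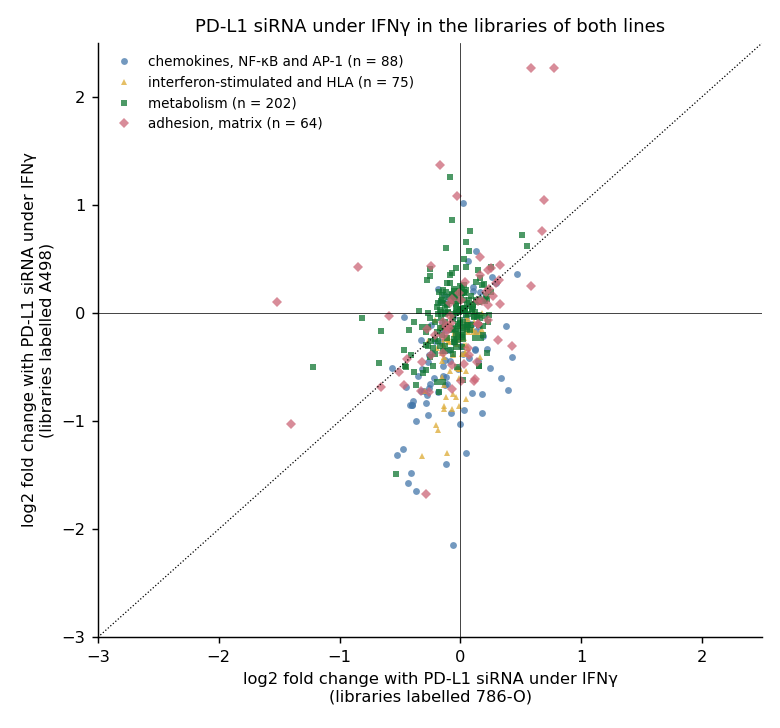
Log2 fold change of PD-L1si IFNγ over Cnsi IFNγ in the libraries labelled 786-O (x axis) and A498 (y axis), for members of 4 groups of gene lists tested in both. Points are genes and the dotted line marks equal values. The spread is wider on the y axis, and the chemokine, NF-κB and AP-1 genes that fell in A498-labelled libraries mostly lie closer to 0 on the x axis.

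A smaller set moved alike in all 3 siRNA comparisons. Of the 17999 genes tested in both lines, 98 were lower and 43 higher in the A498-labelled libraries with and without IFNγ and in the 786-O-labelled ones under IFNγ. In 109 of these 141 neither the interaction nor the difference between lines passed its threshold. Ranked by the smallest of their 3 absolute changes, the leading coding genes at 5 CPM or more were *CETN2*, *CDC42SE2*, *BMAL2*, *DNAL1* and *MIGA1*, all lower. *CD274*, *G0S2* and *SLCO4A1* were in the lower set too, with smaller log2 fold changes in the 786-O-labelled libraries, at −0.94, −0.81 and −0.91. *CETN2* had log2 fold changes of −1.63 under IFNγ, −1.67 without it and −1.59 in the 786-O-labelled libraries. *CDC42SE2*, a small effector of CDC42, had 135, 143 and 134 CPM in Cnsi IFNγ and 48.6, 53.3 and 47.7 CPM in PD-L1si IFNγ, and its log2 fold changes were −1.46, −1.39 and −1.45 in the same order. *MIGA1*, a factor of mitochondrial fusion, had 28.7, 30.9 and 28.6 CPM and 10.6, 14 and 12.4 CPM (−1.26, −1.60 and −1.73). *DNAL1*, an axonemal dynein light chain, had log2 fold changes of −1.33, −1.17 and −1.17, and *BMAL2*, a clock factor that overlaps an antisense gene, −1.49, −1.58 and −1.04. Whether siRNAs of the pool pair with transcripts of *CETN2*, *CDC42SE2*, *BMAL2*, *DNAL1* or *MIGA1* was not tested.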

How the data were processed

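RNA was poly(A)-selected, made into stranded TruSeq libraries and sequenced by the authors. Per the submitters' processing notes and the study's methods, reads were demultiplexed with bcl2fastq 2.19.0, trimmed with Trimmomatic 0.36.6, aligned to GRCh38/hg38 with HISAT2 2.1.0 and counted per gene with featureCounts 1.6.3 on GENCODE exons with the strand setting -s 1. Stranded TruSeq reads have the opposite orientation to that setting, which was not resolved here, and protein-coding genes held 95.1% to 95.2% of the counts of the 6 libraries. The authors deposited raw counts per gene, with no normalisation, for 39321 genes, and the counts were tested as deposited. Antisense counts may come from the opposite gene.

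A negative binomial model with 1 mean per group was fitted to the 12 A498-labelled libraries (edgeR 4.0.16, R 4.3.3, TMM, robust quasi-likelihood F-test, Benjamini-Hochberg). Genes entered when the counts of any 1 group summed to 10 or more. The 786-O-labelled libraries had a fit of their own, and the difference between lines came from a joint fit of genes tested in both. The procedure was tested on simulated data. Depth was 19256316 to 27907526 counts a library, with 3 libraries a group.

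Gene positions and overlaps came from GENCODE on GRCh38, and 173 table genes had no match there. Named genes were *CD274*, the 10 coding genes of each direction with the largest change at 5 CPM or more and no overlap, in each of 29 gene lists up to 3 called members with the largest change at 1 CPM or more and both ends of its range, genes the study names, and those leading the interaction and the changes shared by 3 comparisons. Where a rule gave a gene too low to measure, it was left out or given in counts. Some genes that the rule names are not reported here. Members and lists were chosen with earlier results of these data known. Alternatives were DESeq2 1.42.0, relative log expression, other filters and fits, other thresholds, and leaving out each library. Set tests were not run.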

Additional observations from a re-analysis of the deposited data

Results flagged for a closer look

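Genes named here were singled out where their siRNA effect differed past the threshold (adjusted p under 0.05 in edgeR and a difference beyond 0.5 on the log2 scale). With groups of 3 libraries, no library could be tested as standing apart from the others of its group. The first difference is that of the effect under IFNγ minus the effect without it. Among genes that rose under IFNγ it was *GASK1B* 1.63, *CLDN2* 1.34, *KCNJ16* 1.32, *CDH1* 1.30, *VAV3* 1.25, *PDK4* 1.15, *CDH6* 1.03, *HOXC10* 0.95 and *SGK2* 0.91. It was also *TSPAN2* 0.89, *AKR1C3* 0.89, *ADAMTS15* 0.86, *HGD* 0.84, *HOXB8* 0.75, *SEMA3A* 0.72, *KMO* 0.67, *COL5A2* 0.57 and *CCNE2* 0.51. Among genes that rose less under IFNγ it was *C4A* −1.15 and *C4B* −1.05. Among genes whose fall was smaller under IFNγ it was *OAS2* 1.91, *MX2* 1.58, *CXCL10* 1.54, *OAS1* 1.12, *IL6* 0.94, *IRF7* 0.82, *ATF3* 0.67 and *PLIN2* 0.57. Among genes that fell further or only under IFNγ by the call rule it was *CMKLR2* −1.34, *CX3CL1* −1.05, *SEMA7A* −1.05, *KYNU* −1.01, *C3AR1* −0.89, *EREG* −0.85, *RND3* −0.76, *GOT1* −0.60 and *ERN1* −0.55. Of genes not called under IFNγ it was *HLA-DPA1* 4.04, *GBP5* 2.09, *FGF14* 1.84 and *IRF1* 0.65. *HLA-DPA1*, *GBP5* and *FGF14* rest on few counts without IFNγ. *CXCL10*, *MX2*, *OAS2* and *CMKLR2* were also under 1 CPM in PD-L1si without IFNγ, so the size of their difference is imprecise.

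The second difference is that of the effect under IFNγ in the 786-O-labelled libraries minus the same effect in the A498-labelled ones, where a positive value means a smaller fall, or a rise, in the former. Of genes that fell in the A498-labelled libraries it was *CCL8* 2.1, *CD274* 1.87, *MT1X* 1.79, *C3AR1* 1.56, *GEM* 1.48, *STAT5A* 1.46, *LAMB3* 1.40, *G0S2* 1.35 and *SEMA7A* 1.32. Next came *CCL2* 1.29, *RSAD2* 1.19, *TNFAIP3* 1.15, *GADD45A* 1.11, *IL6* 1.09, *PDCD1LG2* 1.06, *IRAK2* 1.04, *HLA-DQA1* 1.02 and *ERN1* 0.99. It was smaller for *KYNU* 0.97, *GADD45B* 0.94, *MX2* 0.91, *C1S* 0.88, *HLA-DOA* 0.85, *ISG20* 0.83, *PLK3* 0.82, *SLCO4A1* 0.80 and *TRAF1* 0.80. Lower still were *GSDME* 0.77, *PAX8* 0.74, *PLIN2* 0.66, *RND3* 0.63, *USP18* 0.60, *HKDC1* 0.57, *RIGI* 0.54, *S100A6* 0.52 and *S100A11* 0.51. Closest to the limit were *FADS3* 0.51. Of genes that rose in the A498-labelled libraries it was *GASK1B* −1.96, *VAV3* −1.71, *ADAMTS15* −1.69, *CLDN2* −1.67, *CDH6* −1.53, *CDH1* −1.48, *AKR1C3* −1.41, *KCNJ16* −1.35 and *PDK4* −1.34. After these came *SEMA3A* −1.14, *HGD* −1.10, *ITGB8* −1.10, *TSPAN2* −1.03, *IL18* −0.99, *HOXB8* −0.95, *SGK2* −0.92, *TDO2* −0.92 and *HOXC10* −0.91. It was nearer 0 for *E2F2* −0.82, *E2F8* −0.82, *CCNE2* −0.80, *LHX1* −0.80, *HOXA9* −0.78, *KMO* −0.71, *HOXA5* −0.71, *MPC1* −0.67 and *CFI* −0.59. The remaining ones were *SEMA5A* −0.59. Of genes not called in the A498-labelled libraries it was *DNAJB9* −0.51. Line and sequencing instrument cannot be told apart in this difference.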

How the results depend on the processing

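The number of genes called depended most on the threshold. With an adjusted p under 0.05 alone, 3390 genes were higher, 3732 lower, 1900 differed with and without IFNγ and 2933 differed between the lines, and past a log2 fold change of 1 the counts were 266, 335, 119 and 286. Under the other alternatives run for each, these counts stayed within 1.5 times of 911, 1202, 513 and 1008, and the difference between lines was not refitted with other filters, the newer edgeR fit or without robust estimation. DESeq2 called 719 higher and 1061 lower genes and relative log expression 860 and 1260. No gene called in both had the opposite sign under any alternative. Leaving out 1 of the 6 libraries under IFNγ at a time (those without IFNγ and those labelled 786-O were not left out) gave 823 to 907 higher and 1116 to 1249 lower genes, 426 to 581 interactions, 876 to 1070 line differences and a *CD274* log2 fold change of −2.83 to −2.79. The signs that turned were of values near 0: *CHST2* was 0.0276 without Cnsi IFNγ replicate 3 (−0.210 to 0.0276 over the libraries left out), *FGF14* −0.106 without Cnsi IFNγ replicate 2 and −0.246 without PD-L1si IFNγ replicate 3 (−0.246 to 0.451), *LDHA* 0.00659 without PD-L1si IFNγ replicate 1 (−0.0400 to 0.00659), and *MTOR* −0.0210 without Cnsi IFNγ replicate 3 (−0.0210 to 0.0535).

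Whether replicate numbers pair the libraries was not settled. The same-numbered correlations of deviations from the group means were 0.09, 0.34 and 0.09, and the others lay between −0.29 and 0.25. PD-L1si IFNγ replicates 2 and 3 correlated best with their own number, whereas replicate 1 correlated best with Cnsi IFNγ replicate 3, at 0.25. With a replicate block 911 genes were higher and 1216 lower, 534 differed with and without IFNγ and 1011 between lines, and the *CD274* log2 fold change was −2.81. With the block, 144 of 144 named genes compared kept their call under IFNγ, and 26 of all 2113 calls were lost. Genes near 1 CPM rest on about 20 counts a library, where folds are imprecise. In lists where 0 members rose, DESeq2 called 0 as higher too. The members higher at an unadjusted p under 0.05 (edgeR) numbered 0 for antiviral and class II genes, 1 for class I and 4 for checkpoint ligand genes. They numbered 6 for AP-1, 2 for pentose phosphate and hexosamine, 2 for ATF4, 4 for fatty acid, 2 for unfolded protein and 7 for p53 genes. In lists where 0 fell, 15 class I, 8 respiratory chain and 7 cholesterol genes were lower at an unadjusted p under 0.05 (edgeR). DESeq2 called 0, 0 and 1 as lower in these lists.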

Other observations

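Families outside the lists were looked at after values had been seen. Of 33 HOX genes tested, which set position along the body axis in development, 8 rose and 1 fell, or 24.2% and 3.03% against 4.36% and 5.75% of all genes, with a median log2 fold change of 0.31. *HOXA5* rose from 7.63, 7.21 and 7.55 CPM in Cnsi IFNγ to 18.2, 17.2 and 17.3 CPM in PD-L1si IFNγ (1.24, adjusted p = 2.12e-15, edgeR), *HOXA9* from 34.9 ± 2.71 to 61.1 ± 2.44 CPM (SD, n = 3; 0.81), *HOXB8* from 4.11 ± 0.146 to 7.9 ± 0.415 CPM (0.94) and *HOXC10* from 2.07 ± 0.204 to 4.07 ± 0.403 CPM (0.98). *HOXA11* fell from 6.57 ± 0.948 to 3.53 ± 0.666 CPM (−0.87). Genes of the HOXA cluster lie side by side and share antisense transcripts, so they are not independent. Of 18 semaphorins, 6 rose and 2 fell, or 33.3% and 11.1% (median 0.28), among them *SEMA5A* from 64.1 ± 7.26 to 113 ± 6.72 CPM (0.81).

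Of 10 S100 genes, small calcium-binding proteins, 4 fell and 0 rose, or 40.0% lower against 5.75% of all genes (median −0.45). *S100A6* fell from 414 ± 21 to 274 ± 21.9 CPM (−0.59) and *S100A11* from 759 ± 28.1 to 530.2 ± 10.9 CPM (−0.52), the latter not called without Cnsi IFNγ replicate 1 (−0.49). Of 77 cytosolic ribosomal protein genes, 73 had a positive log2 fold change, with a median of 0.21, and 1 was called as higher, *RPL7A*, from 546 ± 26 to 815 ± 10.3 CPM (0.58). Of 7 guanylate-binding protein genes all 7 were negative, with a median of −0.26, and 0 were called by edgeR or by DESeq2, while 6 were lower at an unadjusted p under 0.05.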
